A study of Mus musculus with 6 samples.

Results

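Transcripts of 10 genes of fatty acid uptake and oxidation were followed in mouse skeletal muscle after electrical pacing. The 10 genes were chosen by name from the pathway, and their probes were those that the platform annotation pairs with exactly 1 of the 10 symbols. All 10 had such a probe, 22 probes in all, among 3939 genes and 13872 probes on the array. The sample groups were muscle from paced mice, called P0, P1, P3, P8 and P24 by the hours between the end of stimulation and harvest (0, 1, 3, 8 or 24), and a sham group that carried the same implant switched off. Stimulation through the implanted pacer had lasted 3 hours. Sham muscle was collected at the time point of the P0 group, so at later times elapsed time and pacing cannot be told apart. Each group had 1 array, on which its RNA was set against a common reference RNA from control muscle, called Pre. The labels used here give no strain, age, sex, named muscle or number of animals behind each RNA. Because there was 1 array per group, no difference below has a replicate check and no p-value is given.

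Skeletal muscle takes up long-chain fatty acids through membrane proteins such as CD36 and carries them through the cytosol on FABP3. Carnitine palmitoyltransferases move the activated acids into the mitochondrion, and malonyl-CoA blocks the outer enzyme, CPT1. Malonyl-CoA decarboxylase, the product of Mlycd, removes that block, and acyl-CoA dehydrogenases and the trifunctional protein then carry out the steps of beta-oxidation. The pathway is known for supplying much of the fuel of oxidative muscle during and after sustained work.

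Values are log2 ratios to Pre, centred on each array's median, and a gene's value is the mean of its measured probes. A value of 0 therefore means the level of a typical probe relative to Pre, and a difference from sham is a subtraction of log2 ratios. The ratio was read as sample over Pre, which is likely from the labels but not stated by dye, and every sign below rests on that reading. The arrays differed in spread, with a robust standard deviation (SD) from 0.176 at P1 to 0.495 in sham, so each difference from sham was also computed after scaling the arrays to a common spread. The probes of a gene typically differed by an SD of 0.280 to 0.381 log2 units in their difference from sham, depending on the time. A change in the amount of a cell type and a change in RNA per cell cannot be told apart in whole muscle. Ratios to a muscle reference carry no absolute level, so the labelled tissue could not be checked by the abundance of its markers. Of 7 skeletal muscle fibre genes, the median difference from sham stayed between -0.09 and 0.15 over the 5 times, with genes on both sides of sham at each time. Myh4, the myosin heavy chain of the fastest fibres with 44 probes, was above sham at all 5 times, by 0.78 at P0 (probe SD 0.81), 0.74 at P1, 0.67 at P3, 0.34 at P8 and 0.47 at P24, also after scaling.

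The promoter windows of 3 members are shown because the results turn on these genes. Of the 10 members, 9 had a window in the RefSeq promoter table (GRCm38.p6), and the 3 printed windows have 300 bases each. The Hadhb window runs from 250 bases before to 50 bases after the gene start. The Mlycd window is placed otherwise, as the annotated gene start used here is at 119394852. Mlycd, on the plus strand at chr8:119394644-119394943, is the member farthest from Pre, and the capitals mark its 3 matches to the CCAAT motif, of which a pair lie side by side. Hadhb, on the plus strand at chr5:30155003-30155302, faces Hadha, and the capitals mark 4 matches to the GC box GGGCGG. Acadvl, on the minus strand at chr11:70015379-70015678, is the member above sham on every paced array, and the capitals mark its match to AGGTCA, the half-site bound by nuclear receptors such as the PPARs.
Mlycd: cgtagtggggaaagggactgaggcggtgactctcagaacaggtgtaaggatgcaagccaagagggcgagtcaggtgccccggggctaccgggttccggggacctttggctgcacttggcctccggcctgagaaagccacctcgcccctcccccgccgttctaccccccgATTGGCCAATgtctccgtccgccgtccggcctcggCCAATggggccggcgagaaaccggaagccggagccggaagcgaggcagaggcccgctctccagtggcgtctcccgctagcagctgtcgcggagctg
Hadhb: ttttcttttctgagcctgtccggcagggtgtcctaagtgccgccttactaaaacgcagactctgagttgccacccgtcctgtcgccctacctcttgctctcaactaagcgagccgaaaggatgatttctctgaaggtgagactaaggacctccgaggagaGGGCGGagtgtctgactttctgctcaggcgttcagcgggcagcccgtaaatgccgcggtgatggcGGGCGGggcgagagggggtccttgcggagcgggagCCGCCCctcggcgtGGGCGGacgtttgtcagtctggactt
Acadvl: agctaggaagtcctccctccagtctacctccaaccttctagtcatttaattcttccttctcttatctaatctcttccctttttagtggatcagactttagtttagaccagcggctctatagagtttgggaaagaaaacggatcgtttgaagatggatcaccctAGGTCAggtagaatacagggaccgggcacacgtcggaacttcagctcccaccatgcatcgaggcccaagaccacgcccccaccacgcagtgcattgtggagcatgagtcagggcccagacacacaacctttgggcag
Both strands were searched for each motif. A CCAAT match was present in 2 of the 9 member windows and in 37.4% of all 32851 windows, and a GGGCGG match in 5 of the 9 and in 35.7% of all. An AGGTCA match was present in 3 of the 9 and in 16.3% of all. The windows of Hadha and Hadhb overlapped by 228 of 300 bases, and 272 bases separated the annotated genes, which encode the alpha and beta subunits of the same enzyme.

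The 10 genes as a group stood slightly above Pre on every array. Their median log2 ratio to Pre was 0.36 in sham (10 genes), 0.19 at P0 (10), 0.31 at P1 (9), 0.28 at P3 (10), 0.31 at P8 (10) and 0.50 at P24 (9), beside medians of all genes between -0.03 and 0.01. Of the members measured, 9 of 10 were above Pre in sham, 8 of 10 at P0, 8 of 9 at P1, 8 of 10 at P3, 9 of 10 at P8 and 6 of 9 at P24. Among all genes measured, 47.2% were above Pre in sham, 50.0% at P0, 49.0% at P1, 49.7% at P3, 50.5% at P8 and 51.2% at P24. At 2-fold or more from Pre, 2 members were higher in sham, Mlycd and Cd36, against 2.09% of all genes higher at that fold. The count was 1 member at P0, Cd36, where 1.40% of genes were that much higher. It was 1 at P1, Mlycd, where 0.690% of genes were. It was 1 at P3, Cd36, where 2.87% were, and 1 at P8, Mlycd, where 1.55% were. At P24 the count was 0 of 9, with 3.74% of all genes that much higher than Pre. No member was 2-fold lower than Pre on any of the 6 arrays, where the shares of all genes were 1.98% in sham, 0.713% at P0, 0.0796% at P1, 2.49% at P3, 0.671% at P8 and 1.56% at P24.

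**Figure D1:**
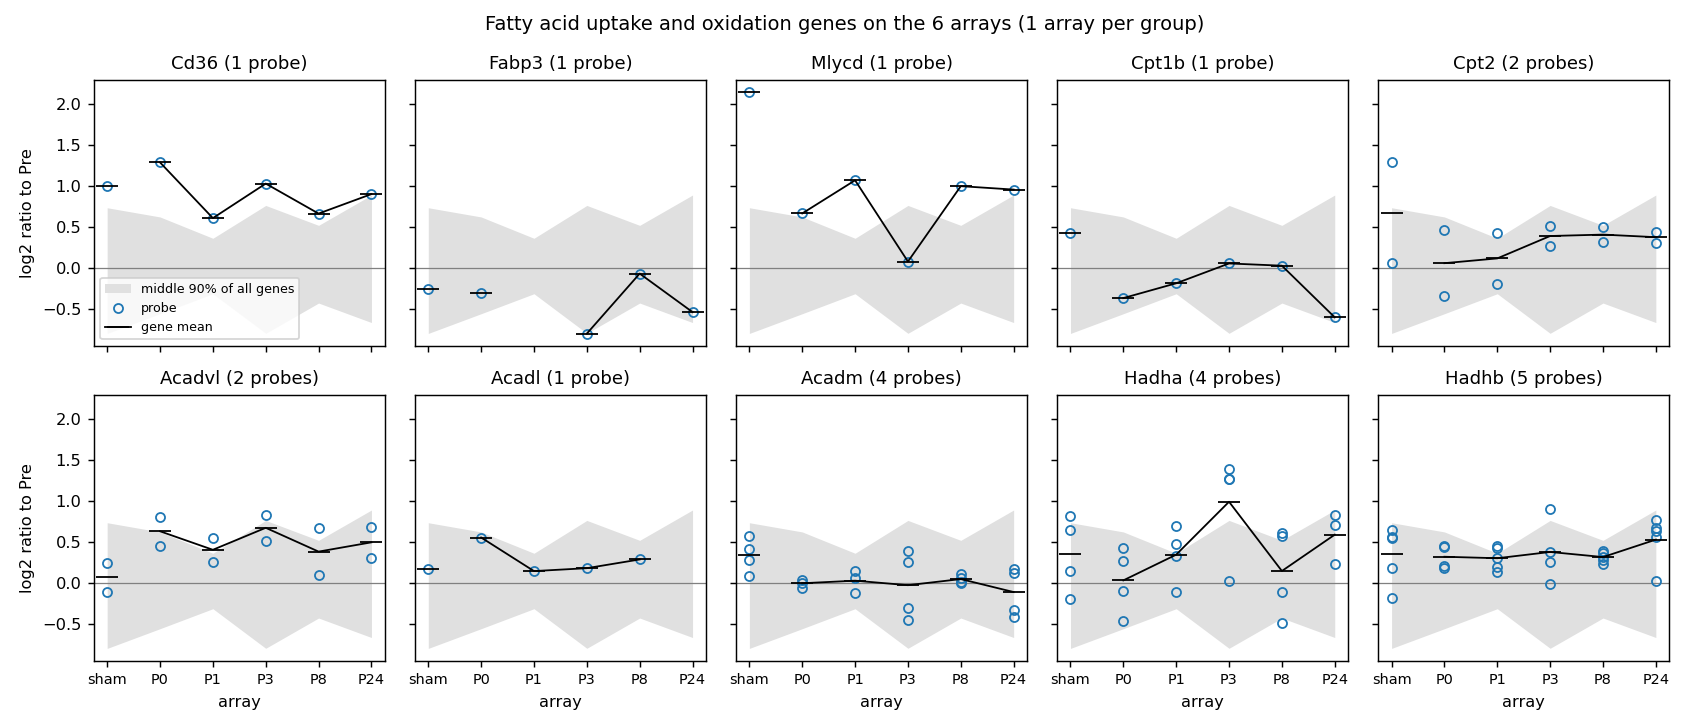
Log2 ratio to Pre (vertical axis) of the 10 genes on the sham array and the 5 paced arrays (horizontal axis, times not to scale). Circles are single probes, bars the gene mean, lines join the paced arrays, and the grey band holds the middle 90% of all genes on each array. Mlycd lies above the band in sham at 2.15 and within it at P3 at 0.08, and Cd36 lies above it on all 6 arrays.

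Against sham the group was lower or level rather than higher, and that depended on the scale of the arrays. The median difference from sham was -0.18 at P0, -0.31 at P1, -0.14 at P3, -0.24 at P8 and -0.28 at P24, beside medians of all genes from 0.02 to 0.08. After scaling to a common spread it was -0.19, 0.35, -0.07, 0.10 and -0.15 in the same order of times. Below sham were 7 of 10 members at P0, 8 of 9 at P1, 5 of 10 at P3, 7 of 10 at P8 and 6 of 9 at P24, where 45.9%, 46.6%, 46.9%, 43.6% and 42.2% of all genes were. After scaling the members below sham numbered 6, 3, 5, 4 and 5, where 45.8%, 46.4%, 46.8%, 42.5% and 43.4% of all genes were. All 5 times subtract the same single sham array, so they are not separate observations. At 2-fold or more, 1 member of 10 was lower at P0, Mlycd, where 3.07% of all genes were that much lower. The same gene alone was 2-fold lower at P1 (1 of 9 members, 0.676% of all genes), at P3 (1 of 10, 0.992%) and at P8 (1 of 10, 1.87%). At P24, 2 of 9 members were 2-fold lower, Mlycd and Cpt1b, where 2.89% of all genes were. No member was 2-fold higher than sham at any time, where the shares of all genes were 3.43% at P0, 0.865% at P1, 1.43% at P3, 1.79% at P8 and 3.09% at P24. At the lower fold of 1.5 in either direction, the members counted 3 of 10 at P0, 2 of 9 at P1, 3 of 10 at P3, 1 of 10 at P8 and 2 of 9 at P24. The shares of all genes at that fold were 24.7%, 12.2%, 11.5%, 18.9% and 22.7%. Without Mlycd the median difference from sham was -0.05 at P0, -0.18 at P1, 0.01 at P3, -0.21 at P8 and -0.19 at P24, and the members 2-fold lower numbered 0 at each time but P24, where Cpt1b was left.

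**Figure D2:**
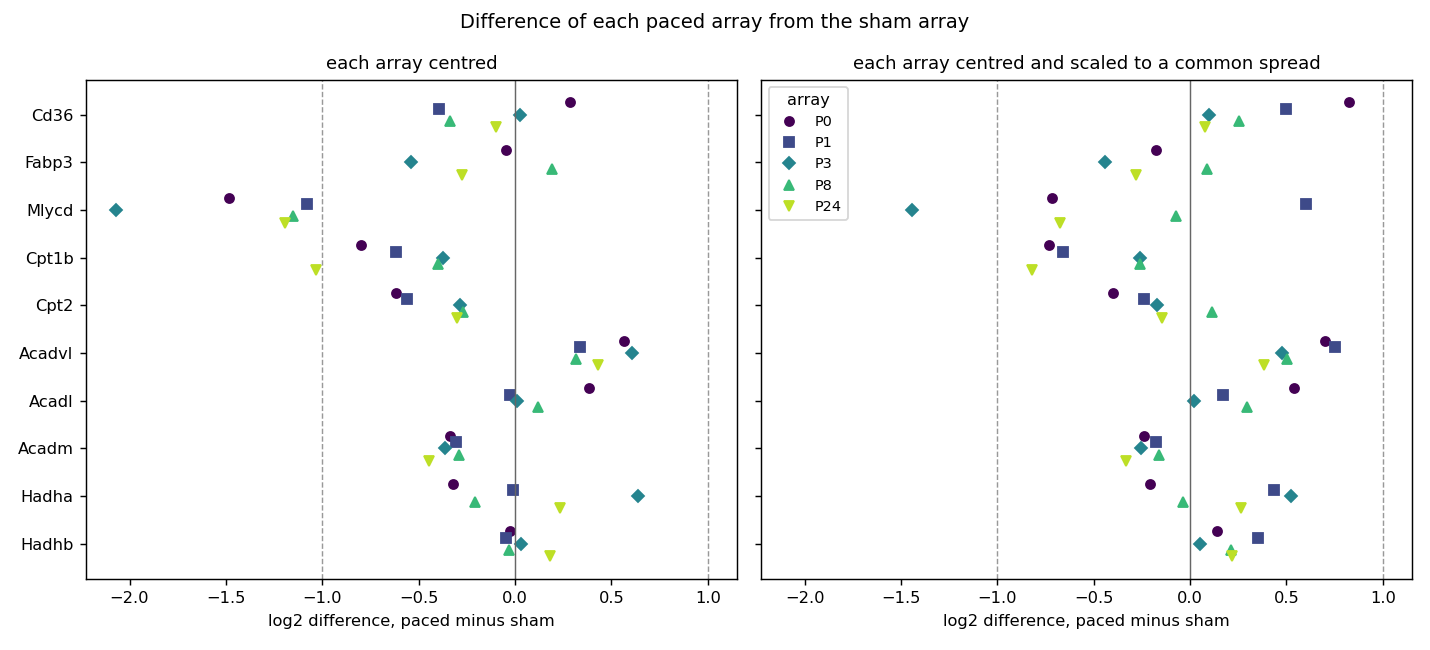
Log2 difference of each paced array from the sham array (horizontal axis) for the 10 genes (vertical axis), with symbols for the 5 times and dashed lines at 2-fold. The left panel has arrays centred and the right panel has them also scaled to a common spread. Mlycd lies below -1 at all 5 times on the left, while on the right it lies below -1 at P3 alone and at 0.60 at P1.

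Uptake was represented by Cd36 and Fabp3. Cd36 encodes the fatty acid translocase of the muscle and endothelial cell membrane and lies at 17781690 to 17888959 on chromosome 5 (GRCm38.p6). Its 1 probe gave log2 ratios to Pre of 1.01 in sham, 1.29 at P0, 0.61 at P1, 1.03 at P3, 0.67 at P8 and 0.91 at P24. All 6 arrays were above Pre, and on each of them the gene stood above at least 95.1% of the genes measured. Against sham it was 0.29 at P0, -0.39 at P1, 0.03 at P3, -0.34 at P8 and -0.10 at P24. The paced arrays lay on both sides of sham, and after scaling all 5 lay above it. The direction of Cd36 against sham thus differed between the scalings, while sham and paced muscle were alike above Pre.

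Cd36 is also made by endothelial cells, adipocytes and macrophages, so genes of those cells were listed beside it. Probes were present for 4 of 9 endothelial genes, whose median ratio to Pre ran from -0.13 at P24 to 0.26 at P3. Among them Cdh5, the cadherin of endothelial junctions, stood at -0.87 in sham and 0.32 at P3. Of 8 adipocyte genes 2 had probes, Fabp4 at 0.41 in sham and Retn at -0.81, with a median ratio to Pre from -0.26 to 0.12 over the arrays. Fabp4 was named after its values were seen. Of 8 macrophage genes 2 had probes, with medians from -0.06 to 0.21. None of these list medians reached the Cd36 ratio on any array, and their part in it was not tested.

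Fabp3 encodes the heart-type fatty acid binding protein of oxidative muscle, and 3 further probes that carry its symbol together with another were not used. Its 1 probe gave log2 ratios of -0.26 in sham, -0.30 at P0, -0.80 at P3, -0.06 at P8 and -0.53 at P24, with no value at P1. It was the 1 member below Pre on every array that measured it. Against sham the P3 value was -0.54, lower than all but 6.45% of genes, and the P8 value was 0.19. Of 4 times 3 were lower than sham and 1 higher, with and without scaling. Genes of slow oxidative fibres, which are rich in this protein, had 7 probed members with a median difference from sham of 0.11 at P3 and -0.47 at P24.

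Malonyl-CoA control rested on Mlycd, at 119394852 to 119421838 on chromosome 8. Its 1 probe gave log2 ratios to Pre of 2.15 in sham, 0.67 at P0, 1.07 at P1, 0.08 at P3, 1.00 at P8 and 0.96 at P24. The sham array was thus the highest of the 6 and the P3 array the lowest, level with Pre. In sham the ratio corresponds to 4.45-fold over Pre. Ranks within an array do not change with its scale. By rank Mlycd was number 3 of 3836 genes in sham, 163 of 3649 at P0, 24 of 3768 at P1, 1484 of 3688 at P3, 58 of 3872 at P8 and 156 of 3663 at P24.

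The difference of Mlycd from sham was -1.48 at P0, -1.08 at P1, -2.07 at P3, -1.15 at P8 and -1.19 at P24. At P3 only 4 of 3628 genes differed from sham by more in the lower direction, as its place was number 5 from the bottom. After scaling, the differences were -0.71 at P0, -1.44 at P3, -0.07 at P8 and -0.68 at P24, and at P1 the sign turned, to 0.60. The lower value at P3 was thus the 1 difference past 2-fold under both scalings. The size of the others depended on the scale.

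The high sham value came from a single spot, and no other Mlycd probe was there to check it. It was the highest of 248 measured spots in its print block, a run of neighbouring probe numbers. The robust SD of that block in sham was 0.633, against 0.495 for all probes. The wider spread of the block was not particular to sham, as all 5 paced arrays had it too. At P1 it was 0.261 against 0.176, and at P3 0.553 against 0.445. The sham array was the 1 array with empty cells, 485 of them, and the part of that in the Mlycd values was not tested. It had fewer exact zeros, 201 against 665 to 1762 on the paced arrays. Of its probes 93.9% were measured, against 87.3% to 95.2% on the paced arrays. At P1 the same spot was again the highest of its block, of 246, while at P3 it was number 100 of 232. Genes 2-fold above Pre on the sham array numbered 58 among the 3180 with a value on all 6 arrays. Of these 58, 45 were below their sham value at P0, 52 at P1, 34 at P3, 49 at P8 and 46 at P24. Among all genes measured, 45.9%, 46.6%, 46.9%, 43.6% and 42.2% were below sham at those times. The median difference of the 58 from sham was -0.86, -0.64, -0.14, -0.64 and -0.73 in the same order. Most of these genes, picked by a high sham ratio, were thus lower on the paced arrays. At P3 the median of the 58 was -0.14 and Mlycd stood at -2.07. What part the choice of a high sham value had in the Mlycd differences was not tested.

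Some listed genes of other cell types were above Pre in sham and lower than sham after pacing, while others were not. Actg2, a smooth muscle actin with 1 probe, was the highest gene on the sham array at 2.52 and stood at -0.89 at P0, -0.02 at P1, -0.16 at P3, -0.07 at P8 and -0.24 at P24. Acta2, the other smooth muscle actin, had 0.54 in sham and was lower than sham by -0.63 at P3 to -1.04 at P8. Cnn1, smooth muscle calponin, had -0.59 in sham and lay on both sides of it after pacing. Of 5 smooth muscle genes 4 had probes, and the median difference from sham ran from -0.63 at P3 to -1.04 at P8 over the 3 genes with a sham value. Of 6 fibroblast genes 4 had probes, and the median difference from sham ran from -0.04 at P1 to -0.67 at P24. In sham Pdgfra stood at 0.36 and Dcn at 0.34. Pdgfra, a growth factor receptor of these cells, was below sham at all 5 times, by -0.42 at P0 to -1.59 at P3, and Dcn, which encodes the matrix protein decorin, by -0.32 at P1 to -0.65 at P8. Lum, which encodes lumican, was -0.62 in sham and between 0.24 above it at P1 and -0.76 from it at P24. Col1a2, a collagen gene, stood at -0.05 in sham. Its differences from sham were 0.39 at P0, 0.28 at P1, 0.21 at P3, -0.02 at P8 and 0.01 at P24. Col1a2 was named after its values were seen. After scaling Actg2, Acta2, Pdgfra, Dcn and Lum were each below sham at all 5 times. Of 3 red blood cell genes 1 had a probe, between -0.12 and -0.44 from sham. The part of these cell types in the Mlycd differences was not tested.

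Likeness to Mlycd over the 6 arrays was taken as the root mean square difference of log2 ratios, among the 3180 genes with a value on each. Ppp1r3c, a glycogen-targeting phosphatase subunit with 2 probes, was nearest at 0.57, with 2.11 in sham and 1.11 at P3. It was followed by Ybx3 at 0.60, Slc22a23 at 0.61, Ahcy at 0.64 and Tysnd1 at 0.66.

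The enzymes that make malonyl-CoA stood the other way from Mlycd on the sham array. Acacb, the mitochondrial acetyl-CoA carboxylase of muscle, had a log2 ratio to Pre of -0.99 in sham, -0.02 at P0, 0.08 at P1, -0.07 at P3, 0.07 at P8 and -0.54 at P24. Its sham value rests on 1 of 2 probes, no probe of it was measured on all 6 arrays, and with zeros kept as values its largest difference from sham was 0.57, at P1. Acaca, the cytosolic carboxylase, stood at -0.61 in sham, 0.10 at P0, -0.12 at P1, 0.09 at P3, 0.12 at P8 and 0.42 at P24, on 2 probes. Both were lowest on the sham array and above it on all 5 paced arrays, also after scaling. The largest differences from sham were 1.07 at P1 for Acacb and 1.03 at P24 for Acaca. Mlycd was above Pre on the same sham array by 2.15. Of the 11 genes listed for malonyl-CoA and fatty acid synthesis 4 had probes, with a median of -0.58 in sham and between 0.00 and 0.08 on the paced arrays.

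**Figure D3:**
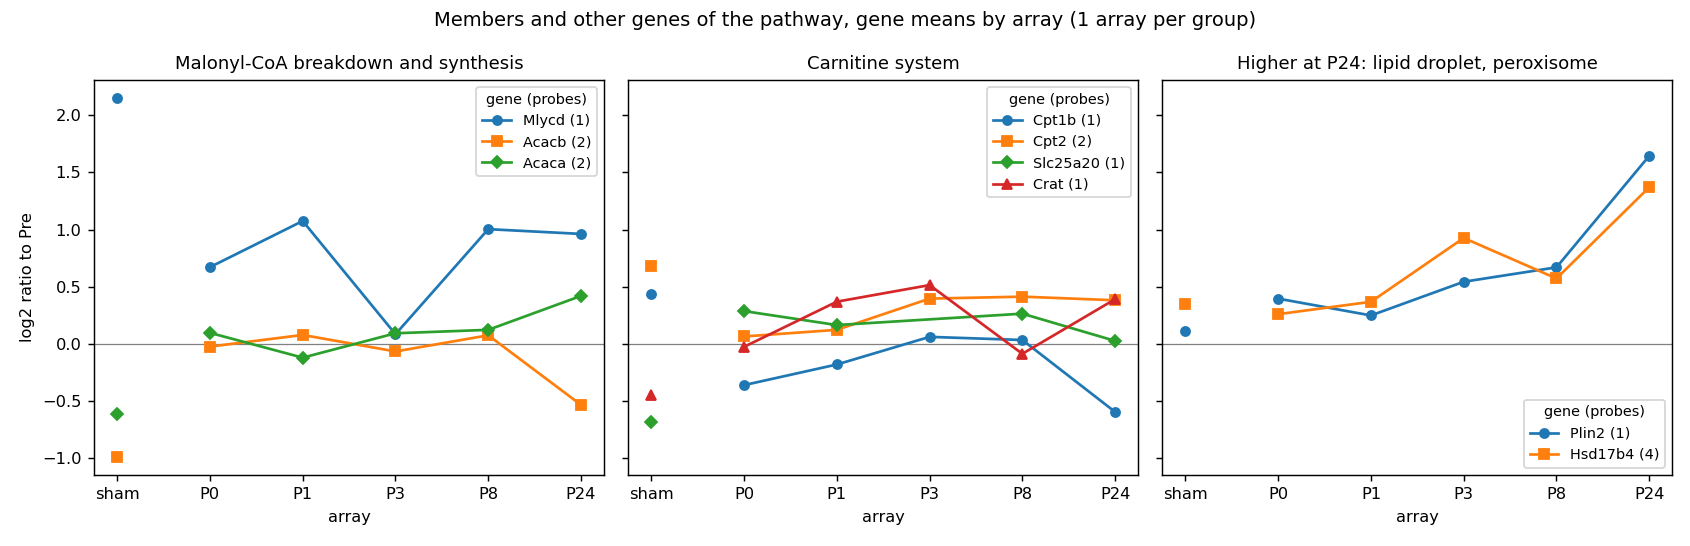
Log2 ratio to Pre (vertical axis) of gene means in sham and at the 5 times after pacing (horizontal axis, not to scale), with the number of probes in the legend and lines joining the paced arrays, past the P3 array for Slc25a20, which has no value there. In sham Mlycd stands at 2.15 and Acacb at -0.99, and at P3 they stand at 0.08 and -0.07. Plin2 and Hsd17b4 are highest at P24.

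Carnitine transfer was represented by Cpt1b and Cpt2. Cpt1b encodes the muscle form of the outer membrane transferase that malonyl-CoA inhibits, and lies at 89416405 to 89425862 on chromosome 15. Its 1 probe gave log2 ratios to Pre of 0.44 in sham, -0.36 at P0, -0.18 at P1, 0.06 at P3, 0.03 at P8 and -0.60 at P24. All 5 paced arrays were below sham, and they stayed below it after scaling. The difference was -0.80 at P0, -0.62 at P1, -0.37 at P3, -0.40 at P8 and -1.03 at P24. The P24 value was lower than all but 2.56% of genes, and 3 further probes that carry the Cpt1b symbol with another were not used.

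The genes most like Cpt1b over the 6 arrays were Secisbp2l at a root mean square difference of 0.10, Rbm38 at 0.12, and Zdhhc1, Tfb2m and Sass6 at 0.13 each. Each of these 5 had 1 probe. They were sought among the same 3180 genes.

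Cpt2 encodes the inner membrane transferase, and its 2 probes disagreed. The log2 ratios of the probe from BG791537 were 0.06 in sham, 0.47 at P0, -0.19 at P1, 0.27 at P3, 0.32 at P8 and 0.45 at P24. Those of the probe from NM_009949 were 1.30 in sham, -0.34 at P0, 0.43 at P1, 0.52 at P3, 0.50 at P8 and 0.31 at P24. The probes therefore differed most in sham and lay close together from P3 on. The gene mean was below sham at all 5 times, by -0.62 at P0 with a probe SD of 1.45, and by -0.27 to -0.56 later, yet both probes were lower at P1 alone. After scaling the P8 difference was 0.11.

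Other genes of the carnitine system stood below Pre in sham. Slc25a20, the carrier that exchanges acylcarnitine for carnitine, had a log2 ratio of -0.69 in sham, 0.29 at P0, 0.16 at P1, 0.26 at P8 and 0.02 at P24. Crat, the carnitine acetyltransferase, had -0.45 in sham, -0.03 at P0, 0.37 at P1, 0.51 at P3, -0.09 at P8 and 0.39 at P24. Both, with 1 probe each, were above sham on every paced array that measured them, also after scaling. Cpt1b was below sham at those same times. Of the 6 genes listed, these 2 had a probe.

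Among the acyl-CoA dehydrogenases, which make the first double bond on chains of different length, very long-chain Acadvl was higher after pacing and medium-chain Acadm lower. The 2 probes of Acadvl moved together. The gene mean was 0.07 in sham, 0.64 at P0, 0.41 at P1, 0.68 at P3, 0.39 at P8 and 0.50 at P24. The difference from sham was 0.56 at P0 with a probe SD of 0.0028, 0.34 at P1 with 0.04, 0.61 at P3 with 0.03, 0.32 at P8 with 0.16 and 0.43 at P24 with 0.02. Both probes were above their sham value on every paced array, and the gene mean stayed above it after scaling. In rank the P3 difference was higher than 94.2% of genes and the P8 difference higher than 73.0%. None of the 5 differences reached 2-fold, and before scaling 1 of them, at P3, reached 1.5-fold. After scaling they were 0.70 at P0, 0.75 at P1, 0.48 at P3, 0.50 at P8 and 0.38 at P24. Those past 1.5-fold were then at P0 and P1, and the order of the times depended on the scale.

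Acadm, with 4 probes, had a gene mean of 0.34 in sham, 0.00 at P0, 0.03 at P1, -0.02 at P3, 0.05 at P8 and -0.11 at P24. Every probe measured on both arrays was below its sham value, 3 of 3 at P0 and at P1 and 4 of 4 at P3, P8 and P24. The difference of gene means from sham ran from -0.29 at P8 (probe SD 0.20) to -0.45 at P24 (probe SD 0.19). It remained below 0 at all 5 times after scaling. On the 3 probes measured on both arrays the difference was -0.31 at P0 and -0.23 at P1. At P3 the probes from BG793982 and BG791484 stood at -0.45 and -0.30 while those from NM_007382 and BG791387 stood at 0.26 and 0.39. That split between pairs of probes returned at P24, at -0.32 and -0.41 against 0.18 and 0.13. No Acadm value reached 1.5-fold from sham.

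Acadl, the long-chain dehydrogenase, had 1 probe, with log2 ratios of 0.17 in sham, 0.56 at P0, 0.15 at P1, 0.19 at P3 and 0.29 at P8. It had no value at P24. The P0 array was the highest, 0.39 above sham, and the other times lay within 0.12 of sham. After scaling all 4 measured times were above sham.

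The trifunctional protein carries out the later steps of each cycle, with Hadha as its alpha subunit and Hadhb as its beta subunit. Hadha had 4 probes and a gene mean of 0.36 in sham, 0.04 at P0, 0.35 at P1, 1.00 at P3, 0.15 at P8 and 0.59 at P24. At P3 the probes stood at 1.28, 1.28, 1.40 and 0.03. The P3 array was the highest for 3 of the 4 probes, and the probe from BG792751, which stayed between -0.19 and 0.23 on all 6 arrays, was the other. The difference from sham at P3 was 0.64 (probe SD 0.37), 1.56-fold, with all 4 probes above their sham value. At P0 the difference was -0.32 (probe SD 0.33), with 3 of 4 probes lower.

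Hadhb had the smallest range of the 10 genes over the arrays, 0.23, though after scaling its range was 0.35 and that of Acadm 0.33. Its 5 probes gave means of 0.35 in sham, 0.32 at P0, 0.31 at P1, 0.38 at P3, 0.32 at P8 and 0.53 at P24. At P24 all 5 probes were above their sham value, by 0.18 on average (probe SD 0.19). After scaling the gene mean was above sham at all 5 times, by 0.05 at P3 to 0.35 at P1. At P3 before scaling, Hadha stood 0.64 above sham. Hadhb stood there at 0.03 from gene means and -0.10 on the 4 probes measured on both arrays. The probe SD of that Hadhb difference was 0.30. The head-to-head genes whose shared promoter stretch is printed above thus had different gene means at P3, but their probes overlapped. Against Pre, a Hadhb probe stood at 0.91 there and a Hadha probe at 0.03. The difference between the subunits has no replicate check.

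Further genes of beta-oxidation in the mitochondrial matrix varied in both directions. Of 18 listed 13 had probes, with a median difference from sham of -0.16 at P0, -0.03 at P1, -0.03 at P3, -0.16 at P8 and -0.48 at P24. At P24, 8 of 12 were below sham, where 42.2% of all genes were. After scaling the medians were -0.14, 0.13, 0.02, 0.05 and -0.37 in the same order of times. At P1, 8 of 12 were below sham before scaling, where 46.6% of all genes were. After scaling 10 of 12 were above it at P1, where 46.4% of all genes were below. At P24 scaling left 8 of 12 below sham, where 43.4% of all genes were. Eci2, an enoyl-CoA isomerase with 1 probe, was the farthest below sham at P0, at -1.81, with -0.59 against Pre at P0 and 1.22 in sham. Etfa, the alpha subunit of the flavoprotein that takes up electrons from the dehydrogenases, was -1.46 from sham at P24, with -0.80 against Pre at P24 and 0.66 in sham. Echs1, the short-chain hydratase, was below sham at all 5 times, by -0.37 to -0.71, though 1 of those times was above it after scaling. Acad8, a dehydrogenase of valine breakdown, was above sham at all 5 times, by 0.40 to 0.82, also after scaling.

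The listed genes of stored fat and of peroxisomes each held a gene 2-fold above sham at P24. Plin2, the coat protein of lipid droplets with 1 probe, had log2 ratios to Pre of 0.12 in sham, 0.40 at P0, 0.25 at P1, 0.54 at P3, 0.67 at P8 and 1.65 at P24. Its P24 array stood 1.53 above sham and 1.34 after scaling. Hsd17b4, the bifunctional enzyme of peroxisomal beta-oxidation with 4 probes, stood at 0.35 in sham, 0.26 at P0, 0.37 at P1, 0.93 at P3, 0.57 at P8 and 1.37 at P24. Its P24 difference from sham was 1.02 (probe SD 0.30) and 0.94 after scaling. None of the 10 members reached such a distance above sham at P24, where the highest was Acadvl at 0.43.

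Over all 92 other genes listed for the pathway, 39 had a probe. Their median difference from sham was 0.01 at P0, 0.02 at P1, 0.10 at P3, 0.06 at P8 and 0.10 at P24, close to the medians of all genes. After scaling it was 0.05, 0.15, 0.08, 0.16 and 0.11 in the same order of times. The medians of all genes were then 0.05, 0.03, 0.02, 0.06 and 0.06. At P1 21 of 38 were above sham, where 53.4% of all genes were. After scaling 30 of 38 were above it at P1, where 46.4% of all genes were below. At P24 3 of 37 were 2-fold higher than sham, where 3.09% of all genes were, and 3 of 37 were 2-fold lower, where 2.89% were. Pdk4 encodes a kinase that turns muscle from glucose to fat by restraining pyruvate oxidation. Its log2 ratios to Pre were 1.89 in sham, 3.54 at P0, 1.80 at P1, 2.20 at P3, 2.22 at P8 and 1.70 at P24. They rest on 3 probes, of which 2 were measured at P1. Pdk4 was thus above sham at P0, by 1.65, and within 0.34 of sham at the later times before scaling. After scaling all 5 times were above sham, by 2.87 at P0, 2.21 at P1, 0.39 at P3, 1.86 at P8 and 0.15 at P24. With zeros kept as values the P1 difference was -0.69. On probes measured on all arrays it was -0.31 at P1, 0.49 at P3, 0.21 at P8 and -0.44 at P24. The sign at P1 and P24 and the size at P8 thus depended on the processing. Pdk4 is a known target of the same fatty acid receptors as several members.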

How the data were processed

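The deposited table gave log10 ratios of 13872 probes on 6 arrays with 2 channels, which per the labels held the muscle sample and the reference Pre. The authors' background correction, normalisation and tools are not given in the sources used here. No signals or quality marks were used, so weak or flawed spots could not be set apart. With 1 array per group the precision could not be estimated. The log base was read from 97 cells that hold a rounding residue of log10. Exact zeros, and values that recurred inside the same print block, were set to missing, leaving 87.3% to 95.2% of probes. Ratios were converted to log2 and centred on each array's median. Probes with exactly 1 symbol numbered 6609, of which 6599 were found by Entrez ID in the RefSeq gene table of GRCm38.p6, while 284 had several symbols and 6979 none. Gene values are means over measured probes, and a fold of 2 served as the threshold. The named genes are all members and, from each pathway or marker list, up to 4 genes at least 1.5-fold from sham or Pre with the largest differences from sham. Fabp4 and Col1a2 were named outside this rule. The members, lists and the handling of zeros were chosen with earlier results of these data known. With 1 array per group no test was made. Processing was tested on simulated data whose noise was narrower than the spread of the real arrays. That test therefore does not show how it behaves at the real spread. Python 3.11.15, pandas 2.3.3 and numpy 2.4.6 were used.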

Additional observations from a re-analysis of the deposited data

How the results depend on the processing

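No paired analysis was possible because each group had 1 array, and no replicate could be left out. A change was measured against the typical SD between probes of a gene. Keeping zeros and shared values, no centring, centring per print block, the median over probes and probes measured on all arrays left each of the members' 11 medians within that SD. That is a wide limit, as the SD was 0.280 to 0.381 for differences from sham. At every time but P1 a median difference from sham could reach 0 within it. Leaving out Mlycd also kept all 11 medians within it, though the P3 median difference went from -0.14 to 0.01. With zeros kept, or with no centring, 0 members were 2-fold from Pre at P8, since Mlycd lay at the threshold. With centring per print block, or the median over probes, 2 were 2-fold from Pre at P3. Scaling the arrays to a common spread moved more. It left 1 member 2-fold from Pre in sham, 2 at P1 and 0 at P3. It left 0 members 2-fold from sham at P0, P1, P8 and P24. At 1.5-fold it left 4 at P0 and 3 at P1, both 1 more than without scaling, 1 at P3, 0 at P8 and 2 at P24. The shares of all genes past these folds after scaling are not given here. These scaled counts therefore cannot be set against a background. The median difference from sham became 0.35 at P1 and 0.10 at P8, and the median ratio to Pre 0.60 at P1. The Mlycd difference from sham at P1 reversed to 0.60. The cause was not tested. Leaving out Mlycd, an alternative chosen after seeing the data, gave 1 member 2-fold from Pre in sham and 0 at P1 and P8. It gave 0 members 2-fold from sham at P0, P1, P3 and P8 and 1 at P24, and at 1.5-fold 1 at P1, 0 at P8 and 1 at P24. If the ratio ran as Pre over sample, every sign would turn.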

Other observations

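Among 22 listed regulators and targets of the fatty acid receptors, 8 had a probe, with a median difference from sham between 0.08 at P3 and 0.25 at P24. Prkag3, a muscle regulatory subunit of AMPK, the kinase that inhibits acetyl-CoA carboxylase, was below sham at all 5 times, by -0.71 at P1 to -1.37 at P8, also after scaling. Acot1, a thioesterase that splits acyl-CoA, was above sham at all 5 times, by 0.17 at P3 to 0.65 at P24, also after scaling. Ppara, the receptor that drives many oxidation genes, stood at -0.64 against Pre in sham and between -0.57 and -0.08 on the paced arrays. Each of these genes had 1 probe. Dbi, the acyl-CoA binding protein, stood at -1.17 from sham at P3 (probe SD 0.78) and at 0.05 at P24, and at -0.77 and 0.53 on probes measured on all 6 arrays.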
